A study of Arabidopsis thaliana with 27 samples.

Results

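The comparison described here is the interaction between the vil1-1 genotype and the time of day in whole Arabidopsis thaliana seedlings. It was taken from the labels of 12 of the 27 libraries of the series, 3 for each of vil1-1 at ZT6, vil1-1 at ZT0, Col-0 at ZT6 and Col-0 at ZT0. In zeitgeber time (ZT), which starts at lights on, ZT0 closes the dark period and ZT6 follows after 6 h of light. For each gene the contrast is the log2 ratio of ZT6 to ZT0 in vil1-1 minus the same log2 ratio in Col-0. A positive value therefore means that the daytime level, relative to dawn, was higher in vil1-1 than in Col-0. vil1-1 is 1 mutant line of VIL1, Col-0 is the wild type, and all plants stood for about a week on MS medium at 22 °C, with 8 h of light and 16 h of darkness a day. A further comparison uses 12 further libraries, 3 for each of vil1-1cop1-4 and cop1-4 at ZT6 and ZT0, which share the cop1-4 mutation. The last 3 of the 27 libraries, hy5-215 at ZT0, enter only the low-count filter, the scaling of library sizes and the estimate of the spread. The labels number the replicates and do not tell whether each was grown separately, so the p-values cover the spread between libraries, part of which may be technical.

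VIL1 (VRN5) carries a PHD finger and works with Polycomb repressive complex 2, the complex that puts methyl marks on histone H3 at silenced genes. It is best known for the silencing of the flowering repressor FLC after cold, and its relatives include VIN3 and VEL1. In a seedling grown in long nights, many genes follow the light, the circadian clock and the sugar that remains at the end of the night. Genes of sugar starvation are high before dawn and fall in the light, while genes of growth, sulfur metabolism and pigment synthesis are often higher by day.

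Reads in genes numbered 19.7 M to 30.9 M in the 12 libraries (median 23.1 M). The first principal component of their log2 levels, with 79.3% of the variance, separated ZT6 from ZT0 libraries, and the second, with 8.91%, separated vil1-1 from Col-0. VIL1 (AT3G24440) stood at 4.62, 6.21 and 6.95 CPM (reads scaled to the normalised library size) in vil1-1 at ZT6 and at 5.08, 4.79 and 5.48 CPM in vil1-1 at ZT0. In Col-0 it stood at 23.5, 23.9 and 22 CPM at ZT6 and at 16, 16.7 and 16.2 CPM at ZT0, above every vil1-1 library. The interaction of VIL1 itself was -0.29 ± 0.15 (log2, SE; edgeR quasi-likelihood test, adjusted p = 0.37). COP1, a ubiquitin ligase that represses light responses and is mutated in other lines of the series, and HY5, a light-signalling factor that COP1 targets, had interactions of 0.08 ± 0.10 and 0.09 ± 0.12 (edgeR adjusted p = 0.80 and 0.83).

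Of 21448 genes tested, 480 passed an adjusted p of 0.05 for the interaction and are called below. The interaction was higher in 266 of them, 1.24% of the genes tested, and lower in 214, 0.998%. Changes were mostly modest. The median absolute interaction was 0.52 on the log2 scale among called genes and 0.14 among all genes tested, and 88 called genes, 44 in each direction, reached 2-fold. At an unadjusted p of 0.05, 3040 genes passed. A fit of these 4 groups alone called 1111 genes, 601 higher and 510 lower, with 466 of the 480 among them. Leaving out 1 library at a time gave 244 calls (without Col-0 ZT6 replicate 2) to 593 (without Col-0 ZT6 replicate 1). The count also fell to between 269 and 306 calls without vil1-1 ZT6 replicate 1 or 2, vil1-1 ZT0 replicate 1 or 3, Col-0 ZT6 replicate 3 or Col-0 ZT0 replicate 2.

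Most called genes moved in the same direction in both lines, but less far in vil1-1. Of the 480, 157 fell between ZT0 and ZT6 in both lines with a smaller fall in vil1-1, and 125 rose in both with a smaller rise in vil1-1. A further 29 falls and 25 rises were called in Col-0 and not in vil1-1. Together these 336 genes made up 70.0% of the calls. The change was larger in vil1-1, or called in vil1-1 alone, for 126 genes (26.2%), of which 58 were larger rises and 37 larger falls. For 18 genes (3.75%) the lines moved in opposite directions. Without regard to the calls in each line, 71.9% of called genes and 58.0% of all genes tested had a smaller absolute change in vil1-1. With the same fitted changes, the share was 65.6% of the genes called without Col-0 ZT6 replicate 2 and 75.5% of those called without Col-0 ZT6 replicate 1, the lowest and highest with 1 library left out. The median absolute log2 change over all genes tested was 0.51 in vil1-1 and 0.56 in Col-0.

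**Figure D1:**
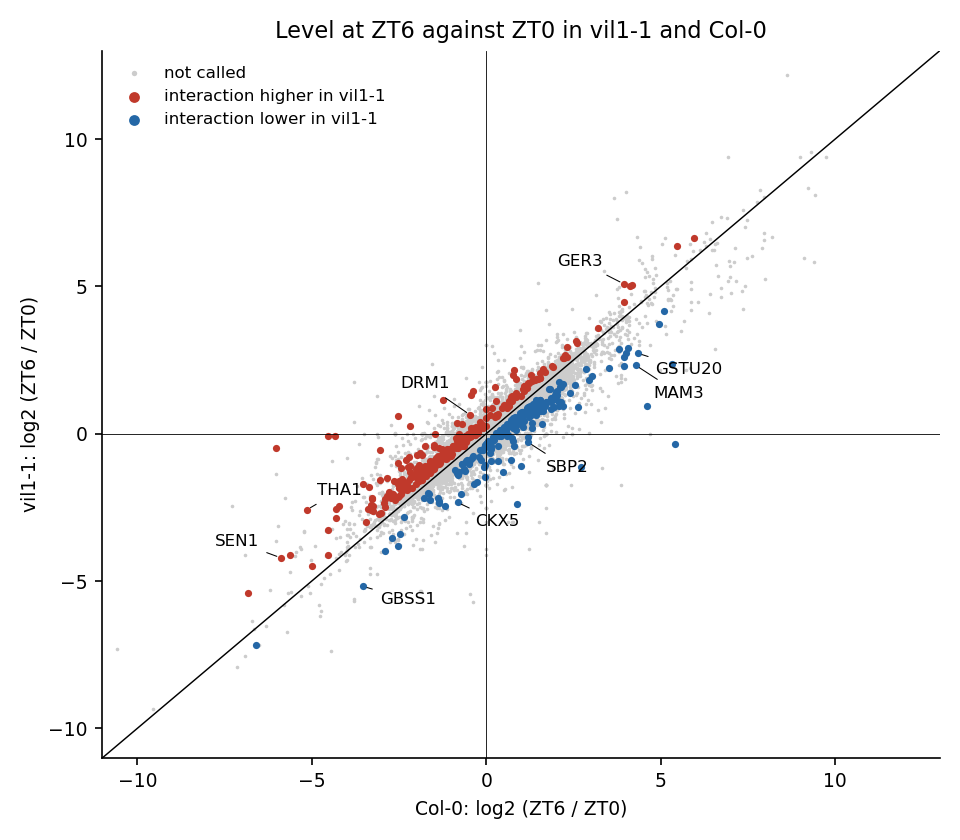
Log2 ratio of ZT6 to ZT0 in vil1-1 (vertical axis) and Col-0 (horizontal axis) for the 21448 genes tested, 1 point per gene, with genes of a higher interaction in red, of a lower interaction in blue, and the line of equal change in black. Most red points lie at falls that were smaller in vil1-1, and most blue points at rises that were smaller in vil1-1.

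The difference between the lines lay mostly at ZT6. Of the 480 genes, 324 differed between vil1-1 and Col-0 at ZT6 and not at ZT0, 173 of them higher and 151 lower in vil1-1. Another 63 differed at ZT0 and not at ZT6, 24 higher and 39 lower in vil1-1. The lines differed in the same direction at both times for 67 genes, in opposite directions for 16, and at neither time for 10. Over all genes tested, 4500 differed between vil1-1 and Col-0 at ZT6 and 2139 at ZT0.

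Of the 33 gene lists, that of genes induced in the dark or by sugar starvation held the most members with a higher interaction. Of 23 members, 21 could be tested, 10 (47.6%) had a higher interaction and 0 a lower one, against 1.24% of all genes called higher. The list's median interaction was 0.50, against 0.00 over all genes tested, and all 21 fitted values lay above 0. Its median log2 change between ZT0 and ZT6 was -1.58 in vil1-1 and -2.16 in Col-0. At ZT6 16 members were higher in vil1-1, and at ZT0 1 was. Of all 21448 genes tested, 4500 differed between the lines at ZT6 and 2139 at ZT0, in either direction. The 10 genes were DRM1, AKINBETA1, TPS9, TPS10, TPS11, BT2, MCCA, ASN1, SEN1 and BCAT2, of which TPS9 and MCCA, at 0.41 and 0.88, lie outside the rule for named genes. At an unadjusted p of 0.05, 17 of the 21 passed, and DESeq2 called 12. The count was 5 or 6 without any 1 of 9 libraries (Col-0 ZT0 replicate 1 or 2, Col-0 ZT6 replicate 2 or 3, vil1-1 ZT0 replicate 1 or 3, and each vil1-1 ZT6 replicate), 9 to 11 without the other 3, and 7 in a fit without the hy5-215 libraries.

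AKINBETA1 encodes a regulatory subunit of SnRK1, the kinase that senses low energy. It stood at 34.4, 33.2 and 33.3 CPM in vil1-1 at ZT6 and at 140, 160 and 139 CPM in vil1-1 at ZT0. In Col-0 it stood at 21.2, 16.3 and 18.6 CPM at ZT6 and at 134, 136 and 131 CPM at ZT0. The vil1-1 libraries lay above the Col-0 libraries at both times, by far more at ZT6. AKINBETA1 fell 4.35-fold in vil1-1 and 7.11-fold in Col-0, an interaction of 0.71 ± 0.11 (SE; edgeR adjusted p = 0.00025).

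TPS10 and TPS11 belong to the class II trehalose-phosphate synthase proteins, which lack clear synthase activity and follow sugar status. TPS11 stood at 40.3, 41.2 and 38.3 CPM in vil1-1 at ZT6 and at 123, 118 and 117 CPM at ZT0, against 32.6, 23.8 and 26.5 CPM in Col-0 at ZT6 and 129, 128 and 127 CPM at ZT0. The lines did not overlap at either time, with vil1-1 above Col-0 at ZT6 and below it at ZT0. The interactions of TPS11 and TPS10 were 0.62 ± 0.10 and 0.50 ± 0.09 (edgeR adjusted p = 0.00038 and 0.00077). BT2, a BTB and TAZ domain protein that responds to sugar and nitrate, was at 103, 99.8 and 94.8 CPM in vil1-1 at ZT6 and at 455, 496 and 403 CPM at ZT0. Its levels in Col-0 were 52.2, 32.1 and 40.6 CPM at ZT6 and 426, 381 and 398 CPM at ZT0, so that the lines were apart at ZT6 and overlapped at ZT0. Its interaction was 1.08 ± 0.17 (edgeR adjusted p = 0.0016).

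DRM1, a dormancy-associated gene used as a marker of resting buds, moved in opposite directions. It stood at 230, 211 and 208 CPM in vil1-1 at ZT6 and at 138, 151 and 126 CPM in vil1-1 at ZT0. In Col-0 it stood at 103, 71.7 and 83 CPM at ZT6 and at 111, 118 and 126 CPM at ZT0. DRM1 thus rose by 0.64 on the log2 scale in vil1-1 and fell by 0.46 in Col-0, an interaction of 1.1 ± 0.14 (edgeR adjusted p = 7.8e-05). It was the member of the list with the smallest p, followed by AKINBETA1.

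Among the other members, several had larger but less certain values. ASN1, the dark-induced asparagine synthetase, stood at 29.9, 31.6 and 33.1 CPM in vil1-1 at ZT6 and at 554, 617 and 467 CPM at ZT0, against 10.7, 6.81 and 5.85 CPM in Col-0 at ZT6 and 393, 400 and 382 CPM at ZT0. Its fall was 17.3-fold in vil1-1 and 49.5-fold in Col-0, an interaction of 1.51 ± 0.38 (edgeR adjusted p = 0.043). SEN1, a dark-inducible senescence gene, and BCAT2, which takes part in the turnover of branched-chain amino acids, had interactions of 1.68 ± 0.42 and 1.76 ± 0.43 (edgeR adjusted p = 0.042 and 0.04). The ASN1 call held without Col-0 ZT6 replicate 1 or vil1-1 ZT0 replicate 2 and was lost without any 1 of the other 10 libraries. The BCAT2 call held without Col-0 ZT0 replicate 3 or vil1-1 ZT0 replicate 2 and was likewise lost without the other 10. The SEN1 call held without any 1 of these 3 libraries and was lost without the other 9. In the fit without the hy5-215 libraries ASN1 and SEN1 also missed the threshold (edgeR adjusted p = 0.057 and 0.055). With 1 library left out, the adjusted p rose to at most 0.14, 0.13 and 0.14 for ASN1, BCAT2 and SEN1, with interactions of at least 1.33, 1.62 and 1.49. DIN11, a dark-induced oxidoreductase of the same list picked after its value was seen, had a fitted interaction of 1.67 ± 0.78 at a mean of 1.27 CPM that was not called (edgeR adjusted p = 0.34).

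The promoters of AKINBETA1 and DRM1 are given because these 2 had the smallest p of the list. The sequences run from 250 bases before to 20 after the annotated start, from the RefSeq annotation of TAIR10.1, at chr5:7205227-7205496 (plus strand) for AKINBETA1 and chr1:9935421-9935690 (minus strand) for DRM1. Capitals mark TATCCA, the sugar-starvation element, on either strand in AKINBETA1, and GATAAG, the I-box, read on the opposite strand as CTTATC in DRM1.
AKINBETA1: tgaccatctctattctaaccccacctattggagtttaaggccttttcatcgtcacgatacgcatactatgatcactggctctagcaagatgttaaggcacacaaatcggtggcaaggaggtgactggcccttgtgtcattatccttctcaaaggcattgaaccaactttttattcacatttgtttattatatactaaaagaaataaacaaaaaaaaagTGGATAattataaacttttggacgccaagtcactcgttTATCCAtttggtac
DRM1: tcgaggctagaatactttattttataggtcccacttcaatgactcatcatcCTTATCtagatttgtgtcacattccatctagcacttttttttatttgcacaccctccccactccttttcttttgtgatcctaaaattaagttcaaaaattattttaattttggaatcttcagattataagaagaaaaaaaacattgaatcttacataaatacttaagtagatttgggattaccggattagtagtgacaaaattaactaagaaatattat
In AKINBETA1 the 2 copies of TATCCA began 32 bases before and 7 bases after the start, and in DRM1 the I-box began 199 bases before it. In windows of 250 bases before to 50 after the start, TATCCA on either strand was present in 10 of 21 promoters of the list (47.6%) and in 16.4% of the promoters of all genes tested. GATAAG was present in 11 of 21 (52.4%) and in 14.9% of all. Such shares were not particular to this list. Of 47 light harvesting and photosynthesis promoters 21 (44.7%) held TATCCA and 19 (40.4%) GATAAG, and that list had 1 call on each side. TATCCA was also present in 38.5% of the promoters of flavonoid regulators and 36.8% of those of cold genes.

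On the opposite side the glucosinolate lists held the most calls. Glucosinolates are sulfur-rich defence compounds of the cabbage family, made from methionine (aliphatic) or tryptophan (indolic). Of 25 aliphatic pathway genes 0 had a higher and 7 (28.0%) a lower interaction, and of 15 indolic genes 0 had a higher and 5 (33.3%) a lower one, against 0.998% of all genes called lower. The medians were -0.46 and -0.34, against 0.00 over all genes tested. Fitted values lay below 0 for 16 of 25 aliphatic and 12 of 15 indolic genes and above 0 for 9 and 3. At an unadjusted p of 0.05, 2 aliphatic genes were higher and 10 lower, and 2 indolic genes were higher and 6 lower. The median log2 change between ZT0 and ZT6 of the aliphatic list was 3.77 in vil1-1 and 4.75 in Col-0. Of all 21448 genes tested, 4500 differed between the lines at ZT6 and 2139 at ZT0, in either direction. At ZT6 22 of 25 aliphatic and 9 of 15 indolic genes were lower in vil1-1, and at ZT0 6 and 1 were. With 1 library left out the counts were 6 to 8 aliphatic and 3 to 5 indolic genes lower. The indolic count was 3 without Col-0 ZT0 replicate 2, Col-0 ZT6 replicate 2, vil1-1 ZT0 replicate 3 or any vil1-1 ZT6 replicate.

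Along the aliphatic pathway, MAM3 extends the methionine chain, IIL1, the large subunit of isopropylmalate isomerase, and BCAT3, an aminotransferase, also act in chain elongation, and BASS5 carries keto acids into the plastid. MAM3 stood at 3.76, 5.46 and 5.06 CPM in vil1-1 at ZT6 and at 0.711, 1.19 and 0.974 CPM at ZT0, against 11.6, 17.2 and 16.1 CPM in Col-0 at ZT6 and 0.785, 1.03 and 0.484 CPM at ZT0. The lines overlapped at ZT0 and were apart at ZT6. Its interaction was -1.97 ± 0.40 (edgeR adjusted p = 0.0034), and those of IIL1, BCAT3 and BASS5 were -0.52 ± 0.07, -0.58 ± 0.08 and -1.24 ± 0.27 (edgeR adjusted p = 2e-05, 2.1e-05 and 0.0064). The BASS5 call was lost without vil1-1 ZT0 replicate 1 (-1.09, edgeR adjusted p = 0.068). MAM1 and CYP83A1, a methionine chain-elongation enzyme and a core cytochrome P450 picked after their values were seen, had fitted interactions of the opposite sign that were not called (1.29 ± 0.48 and 1.52 ± 0.41, edgeR adjusted p = 0.2 and 0.067). CYP83A1 averaged 97.5 ± 13 CPM in vil1-1 at ZT6 and 0.968 ± 0.59 CPM at ZT0, against 236 ± 23.4 CPM in Col-0 at ZT6 and 6.78 ± 0.928 CPM at ZT0 (mean ± SD, n = 3). Its libraries in vil1-1 lay below those in Col-0 at both times.

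Core and sulfur-linked steps followed. GSTU20, a glutathione transferase of the aliphatic pathway, stood at 111, 128 and 125 CPM in vil1-1 at ZT6 and at 19.1, 16.2 and 19.5 CPM at ZT0, against 303, 420 and 328 CPM in Col-0 at ZT6 and 17.7, 16.7 and 17 CPM at ZT0. It rose 6.64-fold in vil1-1 and 20.4-fold in Col-0, an interaction of -1.62 ± 0.19 (edgeR adjusted p = 6.4e-05). SUR1, the C-S lyase shared by both branches, stood at 51.6, 57.9 and 61.5 CPM in vil1-1 at ZT6 and at 24.2, 23.1 and 28.1 CPM at ZT0, against 92.2, 119 and 102 CPM in Col-0 at ZT6 and 26.6, 25.3 and 29.6 CPM at ZT0. Every ZT6 library of vil1-1 lay below every ZT6 library of Col-0, while the ZT0 values overlapped. The interaction was -0.76 ± 0.12 (edgeR adjusted p = 0.00014). SOT17, a sulfotransferase that adds the sulfate group at the end of the core pathway, had an interaction of -1.08 ± 0.22 (edgeR adjusted p = 0.0043).

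APK1 and APK2 are the kinases that make the sulfate donor used by the sulfotransferases, and GGP1 is a peptidase that trims a glutathione adduct of the pathway. APK1 stood at 33.5, 39.5 and 39.7 CPM in vil1-1 at ZT6 and at 18.7, 21.6 and 21.8 CPM at ZT0, against 69.4, 82.3 and 73.2 CPM in Col-0 at ZT6 and 25.9, 23.8 and 24.4 CPM at ZT0. vil1-1 lay below Col-0 at both times. The interactions of APK1, APK2 and GGP1 were -0.74 ± 0.11, -1.27 ± 0.25 and -0.65 ± 0.13 (edgeR adjusted p = 6.3e-05, 0.01 and 0.0084). CYP79B3, which starts the indolic branch from tryptophan, had an interaction of -0.34 ± 0.09 (edgeR adjusted p = 0.026), a call that was lost under 8 settings that each left out 1 library (adjusted p up to 0.091).

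The promoters of IIL1 and BCAT3 (aliphatic) and of APK1 and GGP1 (indolic) are given by the same rule, 2 for each list, and can be set beside those of the starvation genes. They lie at chr4:7807965-7808234 (minus strand), chr3:18422292-18422561 (plus strand), chr2:6313633-6313902 (plus strand) and chr4:14920126-14920395 (plus strand) of TAIR10.1. Capitals mark an I-box (as CTTATC) and a G-box (CACGTG) in IIL1 and TATCCA in GGP1.
IIL1: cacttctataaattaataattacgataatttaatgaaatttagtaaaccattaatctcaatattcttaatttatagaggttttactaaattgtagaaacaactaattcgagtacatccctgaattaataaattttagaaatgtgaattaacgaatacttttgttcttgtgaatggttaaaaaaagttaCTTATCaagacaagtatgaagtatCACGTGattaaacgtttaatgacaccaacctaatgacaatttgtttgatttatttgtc
BCAT3: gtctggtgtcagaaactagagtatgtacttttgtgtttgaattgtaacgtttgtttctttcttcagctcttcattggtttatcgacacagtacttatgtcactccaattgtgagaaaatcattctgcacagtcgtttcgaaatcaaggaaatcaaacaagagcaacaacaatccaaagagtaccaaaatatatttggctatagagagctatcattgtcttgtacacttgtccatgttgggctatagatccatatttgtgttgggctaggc
APK1: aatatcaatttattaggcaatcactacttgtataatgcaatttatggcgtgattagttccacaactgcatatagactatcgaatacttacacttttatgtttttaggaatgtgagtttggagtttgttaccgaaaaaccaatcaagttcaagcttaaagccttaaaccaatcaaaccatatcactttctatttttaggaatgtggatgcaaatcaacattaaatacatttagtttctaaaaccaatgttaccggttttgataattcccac
GGP1: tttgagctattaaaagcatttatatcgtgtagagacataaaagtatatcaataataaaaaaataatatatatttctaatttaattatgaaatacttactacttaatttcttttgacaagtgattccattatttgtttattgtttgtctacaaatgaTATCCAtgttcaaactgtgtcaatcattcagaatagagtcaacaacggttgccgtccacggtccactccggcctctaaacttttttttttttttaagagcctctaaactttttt
The I-box and G-box of IIL1 began 62 and 38 bases before the start, and the TATCCA of GGP1 94 bases before it, while BCAT3 and APK1 held none of these 3 motifs in the printed window. In the aliphatic list 2 of 25 promoters held TATCCA, 6 held the I-box and 5 the G-box, against 16.4, 14.9 and 8.74% of all promoters. In the indolic list 3 of 15 held TATCCA, 3 the I-box and 1 the G-box. TATCCA and the I-box thus occurred in genes of a lower interaction too.

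**Figure D2:**
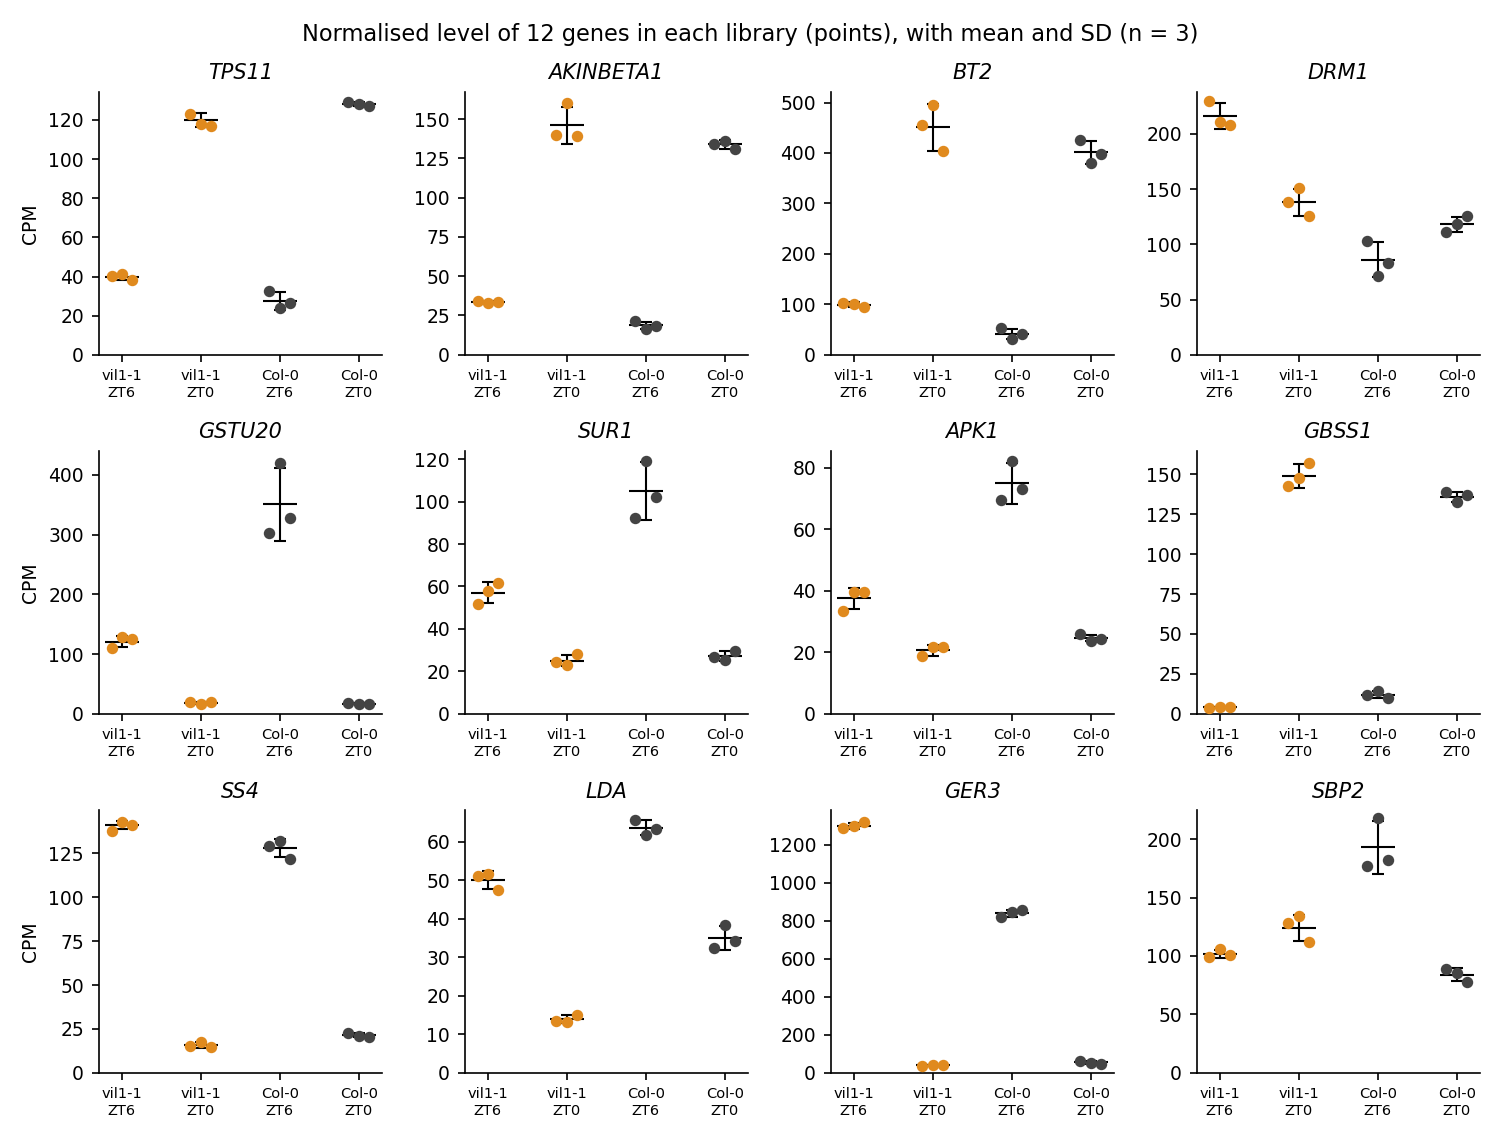
Normalised level (CPM, linear axis from 0) of 12 genes in the 3 libraries of each group, as points, with the mean and SD as bars. In the top row vil1-1 is above Col-0 at ZT6, in the middle row it is below, and SBP2 and DRM1 change in opposite directions in the 2 lines.

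Starch and sucrose genes divided. GBSS1, the granule-bound starch synthase that makes amylose, stood at 3.76, 4.47 and 4.02 CPM in vil1-1 at ZT6 and at 143, 148 and 157 CPM at ZT0, against 11.7, 14.1 and 9.98 CPM in Col-0 at ZT6 and 139, 133 and 137 CPM at ZT0. It fell 36.3-fold in vil1-1 and 11.5-fold in Col-0, an interaction of -1.65 ± 0.17 (edgeR adjusted p = 2.4e-06). SS4, which takes part in starch granule initiation, stood at 138, 143 and 141 CPM in vil1-1 at ZT6 and at 15.3, 17.7 and 14.5 CPM at ZT0, against 129, 132 and 122 CPM in Col-0 at ZT6 and 22.6, 21.1 and 20.6 CPM at ZT0. Its interaction of 0.58 ± 0.10 (edgeR adjusted p = 0.0002) came with higher levels in vil1-1 at ZT6 and lower ones at ZT0. The debranching enzyme LDA, a limit dextrinase that is not on the list of 38 and was named for the size of its change, had an interaction of 0.99 ± 0.11 (edgeR adjusted p = 3.7e-07). LDA stood at 51, 51.7 and 47.4 CPM in vil1-1 at ZT6 and 13.5, 13.1 and 15 CPM at ZT0, below the 65.6, 61.8 and 63.3 CPM of Col-0 at ZT6 and the 32.3, 38.5 and 34.3 CPM of Col-0 at ZT0.

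The sucrose carriers SUC1 and SUC2, of which SUC2 loads the phloem, had interactions of -0.53 ± 0.11 and -0.35 ± 0.08 (edgeR adjusted p = 0.0056 each). SUC2 stood at 169, 167 and 169 CPM in vil1-1 at ZT6 and at 121, 114 and 130 CPM at ZT0, against 193, 189 and 173 CPM in Col-0 at ZT6 and 105, 104 and 105 CPM at ZT0, below Col-0 at ZT6 and above it at ZT0. Of 38 starch and sucrose genes, 2 (5.26%) had a higher and 3 (7.89%) a lower interaction, against 1.24 and 0.998% of all genes. The list's median was 0.01. Besides SS4, the list's other gene with a higher interaction was SUS3, a sucrose synthase (0.45 ± 0.12, edgeR adjusted p = 0.032), and its call was lost under 8 settings that left out 1 library (adjusted p up to 0.14). Starch breakdown genes such as SEX1, which phosphorylates starch, and BAM3, a chloroplast amylase, both picked after their values were seen, had fitted interactions of 0.17 and 0.12 and were not called (edgeR adjusted p = 0.42 and 0.62).

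**Figure D3:**
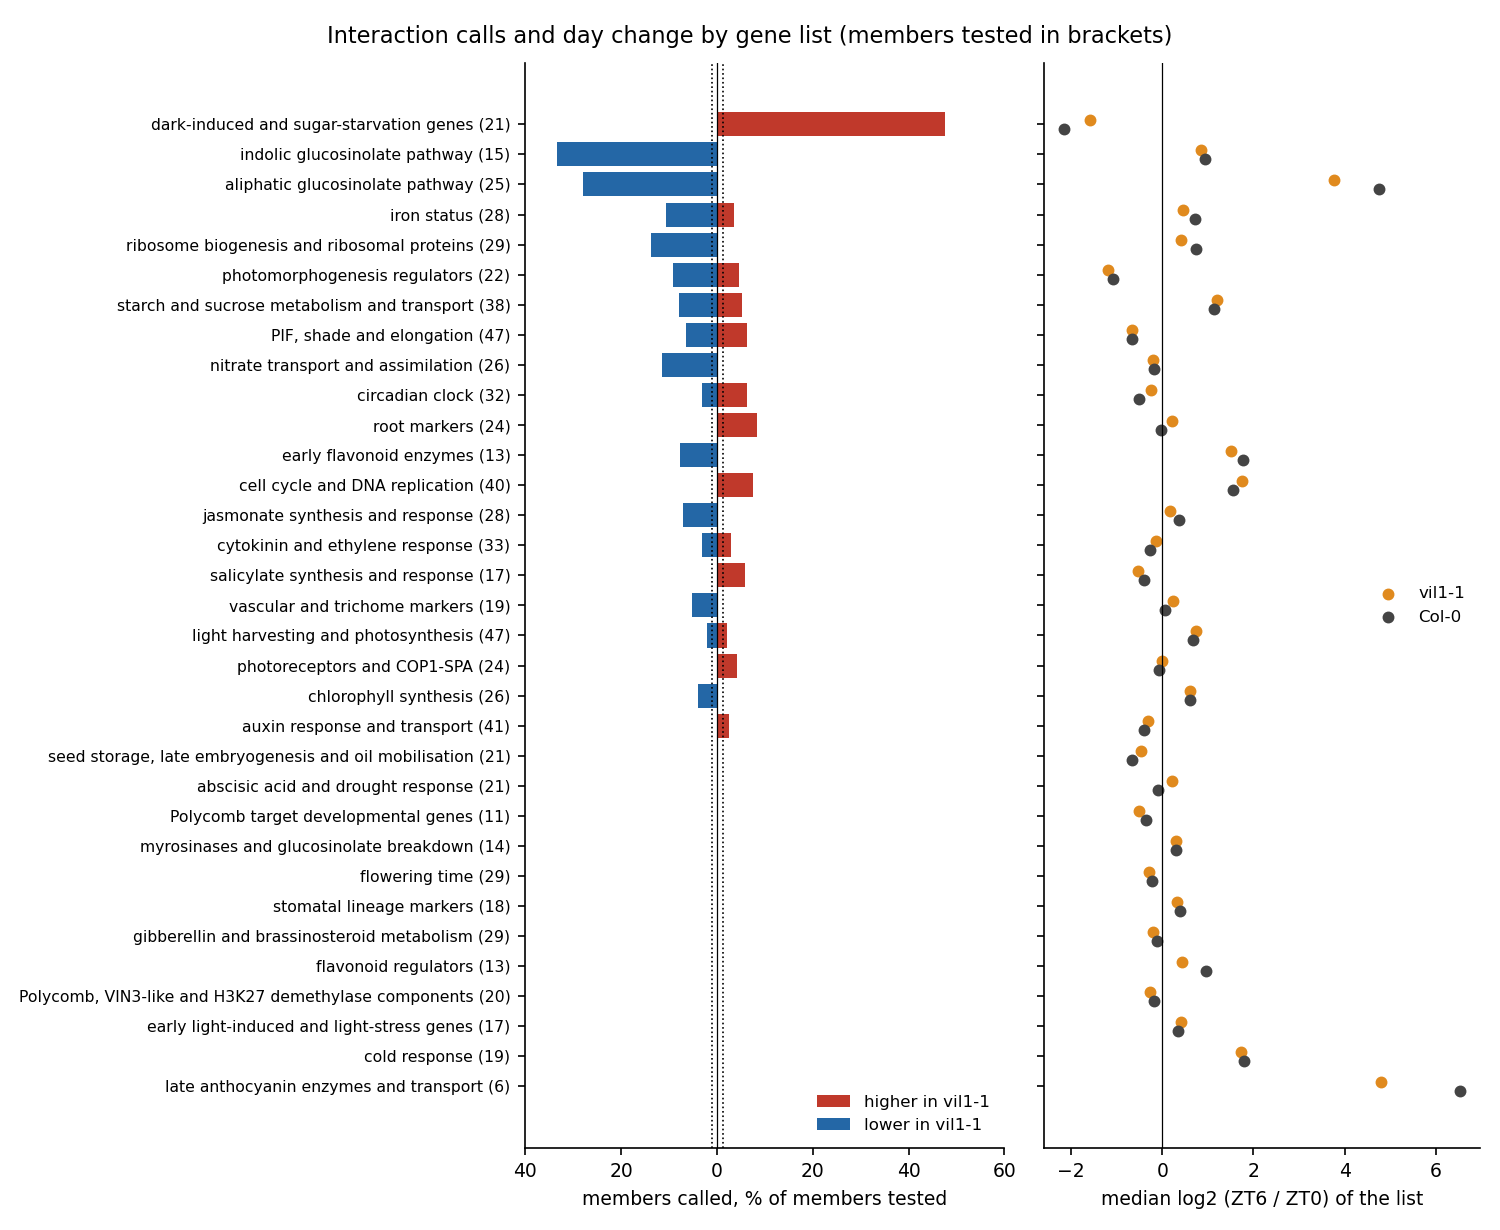
Left, share of the tested members of 33 gene lists with a higher (right of 0) or lower (left of 0) interaction, with dotted lines at the shares over all genes tested. Right, median log2 ratio of ZT6 to ZT0 of each list in vil1-1 and Col-0. The starvation list reaches 47.6% on the higher side and the indolic and aliphatic glucosinolate lists 33.3 and 28.0% on the lower side.

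Pigment and defence metabolism differed less clearly. 4CL3, a ligase at the entry of flavonoid synthesis, rose 4.71-fold in vil1-1 and 11.6-fold in Col-0. Its levels were 7.94, 9.66 and 10.8 CPM in vil1-1 at ZT6 and 1.9, 2.23 and 1.91 CPM at ZT0, against 14.5, 16.4 and 14.6 CPM in Col-0 at ZT6 and 1.27, 1.38 and 1.27 CPM at ZT0. It was the 1 early flavonoid enzyme of 13 to be called (7.69%, against 0.998% of all genes called lower). Its interaction was -1.3 ± 0.24 (edgeR adjusted p = 0.00077), and the list median was -0.26. At an unadjusted p of 0.05, 6 of the 13 were lower. DESeq2 called 4 lower, the fit of the 4 groups alone and the filter at a mean of 5 CPM 3 each, no filter 2, and the fits without vil1-1 ZT6 replicate 3 and without Col-0 ZT0 replicate 1 called 3 and 2. None of the 6 late anthocyanin genes was called for the interaction. At ZT6, where 4500 of all 21448 genes differed between the lines in either direction, all 6 were lower in vil1-1. Their median interaction was -1.76, with GSTF12, which is needed for anthocyanin transport, at -2.48 ± 1.2 and DFR, dihydroflavonol reductase, at -2.42 ± 0.91 (edgeR adjusted p = 0.33 and 0.17), both picked after their values were seen. GSTF12 averaged 1.83 CPM in vil1-1 at ZT6 and 0.0615 CPM at ZT0, against 9.21 CPM in Col-0 at ZT6 and 0.0516 CPM at ZT0, so that the change within each line rests on very few reads at ZT0. At an unadjusted p of 0.05, 3 of the 6 passed, and DESeq2 called 0.

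Of 28 jasmonate genes 2 had a lower interaction (7.14%, against 0.998% of all genes), with a median of -0.13. VSP1, a vegetative storage protein induced by jasmonate, stood at 14.8, 14.1 and 17.4 CPM in vil1-1 at ZT6 and at 2.5, 2.34 and 2.78 CPM at ZT0, against 26.7, 26.1 and 25.8 CPM in Col-0 at ZT6 and 1.83, 1.55 and 1.67 CPM at ZT0. The lines changed places, with vil1-1 below Col-0 at ZT6 and above it at ZT0, and the interaction was -1.35 ± 0.21 (edgeR adjusted p = 6.4e-05). AOC1, an allene oxide cyclase of jasmonate synthesis, had an interaction of -1.01 ± 0.20 (edgeR adjusted p = 0.0032). VSP1 and AOC1 have close relatives in the genome, so that reads may be divided among copies.

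Iron and nitrogen genes held a few further calls, with list medians of -0.31 and -0.04. VTL5, a vacuolar iron transporter-like protein, stood at 27.7, 27 and 26.8 CPM in vil1-1 at ZT6 and at 46.7, 43.1 and 45.3 CPM at ZT0, against 15.1, 10.8 and 13.2 CPM in Col-0 at ZT6 and 54.5, 47.6 and 52.5 CPM at ZT0. Its fall was smaller in vil1-1, an interaction of 1.24 ± 0.18 (edgeR adjusted p = 0.00027). VTL5 was the 1 iron gene of 28 called higher (3.57%, against 1.24% of all genes). The other 3 called genes of the 28 on the iron list went the opposite way, NRAMP4, a vacuolar metal exporter, at -0.58 ± 0.10, FRO3, a ferric reductase, at -0.56 ± 0.10, and BTS, a ubiquitin ligase that restrains the iron-deficiency response, at -0.46 ± 0.08 (edgeR adjusted p = 0.00017, 0.0011 and 0.00061). Of 26 nitrate genes 3 (11.5%) had a lower interaction, as had 3 of 28 iron genes (10.7%), against 0.998% of all genes. The fit of the 4 groups alone called 2 nitrate genes higher and 5 lower. GLN1;2, a cytosolic glutamine synthetase, stood at 494, 528 and 523 CPM in vil1-1 at ZT6 and at 395, 405 and 391 CPM at ZT0, against 711, 844 and 773 CPM in Col-0 at ZT6 and 395, 387 and 378 CPM at ZT0 (-0.63 ± 0.08, edgeR adjusted p = 1.9e-06). The nitrate transporter NRT1.1 had -0.54 ± 0.11 (edgeR adjusted p = 0.0039). G6PD3, a plastid glucose-6-phosphate dehydrogenase, had -0.51 ± 0.15 (edgeR adjusted p = 0.0497), a call lost under 12 of 19 settings.

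Calls in the light and clock lists went in both directions. The medians were 0.03 (PIF, shade and elongation), -0.06 (photomorphogenesis regulators), 0.18 (clock) and 0.05 (photosynthesis). HFR1, a bHLH factor that COP1 targets for degradation and that restrains shade growth, stood at 16.6, 15 and 14.7 CPM in vil1-1 at ZT6 and at 55.7, 58.3 and 51.4 CPM at ZT0, against 11.6, 9.24 and 8.66 CPM in Col-0 at ZT6 and 58.1, 53.8 and 57.1 CPM at ZT0. Its interaction was 0.67 ± 0.13 (edgeR adjusted p = 0.002), with the lines apart at ZT6 alone. Of 47 PIF, shade and elongation genes 3 (6.38%) had a higher and 3 (6.38%) a lower interaction, against 1.24 and 0.998% of all genes. Those higher were HFR1, the auxin-response gene IAA29 (0.72 ± 0.17) and the expansin EXPA1 (0.55 ± 0.10). Those lower were the cytokinin oxidase CKX5 (-1.50 ± 0.21), PRE6 (-0.77 ± 0.14) and BIM1 (-0.34 ± 0.08), a bHLH partner in brassinosteroid signalling. The edgeR adjusted p values of these genes other than HFR1 were 0.011, 0.0012, 8.6e-06, 0.00085 and 0.01. The adjusted p of IAA29 rose to 0.052 without vil1-1 ZT6 replicate 1, and that of BIM1 to 0.062 without Col-0 ZT6 replicate 2 and to 0.053 without Col-0 ZT0 replicate 2. CKX5 stood out by its dawn level of 23.3, 17.3 and 23.1 CPM in vil1-1 at ZT0, against 4.78, 6.11 and 4.84 CPM in Col-0 at ZT0, while its ZT6 levels were 3.95, 4.29 and 4.42 CPM in vil1-1 and 3, 3.09 and 2.78 CPM in Col-0.

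PHYA, the far-red photoreceptor, had an interaction of 0.36 ± 0.08 (edgeR adjusted p = 0.011), a call lost without Col-0 ZT6 replicate 2 or 3 (adjusted p = 0.062 and 0.052). PHYA was the 1 called gene of 24 photoreceptor and COP1-SPA genes (4.17%, against 1.24% of all genes called higher). GLK1 and GLK2, activators of chloroplast genes, had lower interactions of -0.47 ± 0.13 and -0.35 ± 0.08 (edgeR adjusted p = 0.049998 and 0.01). GLK1 lay at the threshold and lost its call under 14 of the 19 alternative settings. The list of 22 photomorphogenesis regulators held 1 higher call (4.55%), HFR1, and 2 lower (9.09%), against 1.24 and 0.998% of all genes. With 1 library left out it held 1 or 2 on each side. Of 32 clock genes, the dawn MYB gene CCA1 had a lower interaction (-0.56 ± 0.15) and its relative RVE4 and the CONSTANS repressor CDF2 higher ones (0.41 ± 0.09 and 0.52 ± 0.13; edgeR adjusted p = 0.037, 0.0067 and 0.024). CCA1 stood at 1.96, 2.13 and 2.85 CPM in vil1-1 at ZT6 and at 341, 343 and 314 CPM at ZT0, against 3.92, 4.02 and 2.94 CPM in Col-0 at ZT6 and 357, 348 and 356 CPM at ZT0. The 2 higher clock calls (6.25%) and 1 lower (3.12%) stand against 1.24 and 0.998% of all genes, and 12 of 32 clock genes passed an unadjusted p of 0.05. With 1 library left out the clock counts ran from 1 higher and 0 lower (without vil1-1 ZT6 replicate 2 or Col-0 ZT6 replicate 2) to 5 higher and 0 lower (without vil1-1 ZT0 replicate 2). The count was 1 higher and 1 lower without vil1-1 ZT0 replicate 3, 3 higher without Col-0 ZT6 replicate 1, 2 lower without Col-0 ZT6 replicate 3, and 0 lower without vil1-1 ZT6 replicate 1, vil1-1 ZT0 replicate 1 or Col-0 ZT0 replicate 2. The CCA1 call was lost under 7 settings that left out 1 library (adjusted p up to 0.17), and the CDF2 call under 3 (up to 0.23). Of 47 photosynthesis genes, RBCS1B had a higher interaction (0.36 ± 0.08, edgeR adjusted p = 0.01) and LHCB1.1 a lower one (-0.65 ± 0.17, edgeR adjusted p = 0.046). That is 2.13% each way, against 1.24 and 0.998% of all genes. RBCS1B and LHCB1.1 both belong to families of near-identical copies, and the LHCB1.1 call was lost under 15 of 19 settings.

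Of 29 ribosome genes 4 (13.8%) had a lower interaction, against 0.998% of all genes, and 0 had a higher one by edgeR, by DESeq2 or at an unadjusted p of 0.05. They were RPL27AB and RPL5B, proteins of the large ribosomal subunit, and the nucleolar proteins NUC1 and FIB1. Their interactions were -0.36 ± 0.08, -0.27 ± 0.08, -0.31 ± 0.07 and -0.29 ± 0.07 (edgeR adjusted p = 0.0064, 0.048, 0.01 and 0.018). The median of the list was -0.24, 28 of 29 fitted values lay below 0, and 24 of 29 genes were lower in vil1-1 at ZT6. Of all 21448 genes tested, 4500 differed between the lines at ZT6, in either direction. NUC1 stood at 508, 503 and 526 CPM in vil1-1 at ZT6 and at 176, 179 and 184 CPM at ZT0, against 642, 690 and 671 CPM in Col-0 at ZT6 and 190, 184 and 194 CPM at ZT0. The fit of the 4 groups alone called 17 of these genes lower, and 2 to 4 were called with 1 library left out, 2 without Col-0 ZT6 replicate 3. RPL5B lost its call under 12 settings (adjusted p up to 0.15), and FIB1 without Col-0 ZT6 replicate 3 (0.0503).

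Among 40 cell cycle genes 3 (7.5%) were called higher, against 1.24% of all genes, and the list's median was 0.01. They were the replication helicase subunits MCM7, MCM4 and MCM3, at 0.56 ± 0.12, 0.45 ± 0.11 and 0.48 ± 0.13 (edgeR adjusted p = 0.0044, 0.019 and 0.04). MCM7 stood at 41.4, 44.1 and 44.8 CPM in vil1-1 at ZT6 and at 9.95, 8.13 and 10.3 CPM at ZT0, against 42.1, 42 and 44.1 CPM in Col-0 at ZT6 and 14.6, 14.2 and 12.4 CPM at ZT0. The lines thus overlapped at ZT6 and differed at ZT0, where vil1-1 was lower. Without Col-0 ZT0 replicate 1 or Col-0 ZT6 replicate 1 the count was 1, and over all settings MCM3 lost its call in 10 and MCM4 in 2. Summed over the 40 genes, the level was 770 to 784 CPM in vil1-1 at ZT6 and 280 to 321 CPM at ZT0, against 842 to 920 CPM in Col-0 at ZT6 and 360 to 366 CPM at ZT0.

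Lists for cell types that a seedling holds were also counted. Of 18 stomatal lineage markers and 21 seed genes 0 were called by edgeR or DESeq2, with 4 and 2 at an unadjusted p of 0.05. As 2.24% of all genes were called, 0 calls in lists this short say little about these cells. Of 24 root markers, with a median of 0.18, 2 (8.33%, against 1.24% of all genes) were called higher, SKOR and PHO1, carriers that load the xylem. Of 19 vascular and trichome markers 1 (5.26%, against 0.998% of all genes) was called lower, SUC2. SKOR and PHO1 had interactions of 0.57 ± 0.15 and 0.37 ± 0.10 (edgeR adjusted p = 0.037 each) and lost their calls under 9 and 11 settings. Root markers summed to 5140 to 5340 CPM in vil1-1 at ZT6 and 3050 to 3190 CPM at ZT0, against 5410 to 5880 CPM in Col-0 at ZT6 and 2990 to 3200 CPM at ZT0. Stomatal markers summed to 298 to 300 CPM and 243 to 253 CPM in vil1-1 at ZT6 and ZT0, against 316 to 332 CPM and 270 to 276 CPM in Col-0 at ZT6 and ZT0. Vascular and trichome markers summed to 497 to 512 CPM and 610 to 634 CPM in vil1-1 at ZT6 and ZT0, against 487 to 515 CPM and 579 to 605 CPM in Col-0 at ZT6 and ZT0. Of the 21 seed genes 13 were called higher in vil1-1 at ZT6 and 9 at ZT0. Of all 21448 genes tested, 4500 at ZT6 and 2139 at ZT0 were called between the lines, in either direction. Summed, the seed list stood at 1040 to 1110 CPM in vil1-1 at ZT6 and 1510 to 1550 CPM at ZT0, against 558 to 616 CPM in Col-0 at ZT6 and 846 to 931 CPM at ZT0. The regulator LEC1 and the storage proteins SESA1 and SESA3 had 0 reads both in vil1-1 at ZT6 and in Col-0 at ZT6, and CRU2 and SESA2 had 0 reads in vil1-1 at ZT6. In whole seedlings fewer cells of a type and less RNA per cell cannot be told apart, and the part of cell composition in the interaction was not tested.

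The lists closest to the known function of VIL1 held no call. Of all genes tested 2.24% were called, and 0 calls in lists this short lie near that share. None of 11 Polycomb target developmental genes, 20 Polycomb, VIN3-like and demethylase components or 29 flowering genes passed the threshold. Their medians were 0.08, -0.01 and 0.04. A further 9 Polycomb targets, 2 components and 7 flowering genes could not be tested. At an unadjusted p of 0.05, 2 of the 11 Polycomb targets, 2 of the 20 components and 4 of the 29 flowering genes passed, against 3040 of all 21448 genes, and DESeq2 called 0 in each list. Under any of the other alternatives at most 1 Polycomb target and at most 2 flowering genes were called. Lists of cold, abscisic acid, gibberellin and brassinosteroid, light-stress, myrosinase and flavonoid regulator genes also held 0 calls by edgeR, with 3 of 19, 4 of 21, 3 of 29, 4 of 17, 4 of 14 and 1 of 13 genes at an unadjusted p of 0.05. DESeq2 called 1 cold, 1 gibberellin or brassinosteroid and 1 light-stress gene among them and 0 in the other 3 lists. Single calls fell on auxin genes (1 of 41, 2.44%, IAA29), salicylate genes (1 of 17, 5.88%, GRXS13) and chlorophyll synthesis (1 of 26, 3.85%, GUN4). IAA29 and GRXS13 were higher and GUN4 lower, against 1.24 and 0.998% of all genes. GRXS13, a glutaredoxin, had 0.55 ± 0.14 (edgeR adjusted p = 0.029), a call lost under 7 of 19 settings. GUN4 had -0.56 ± 0.10 (edgeR adjusted p = 0.0015). Of 33 cytokinin and ethylene genes ARR4, a type-A response regulator, was higher (0.42 ± 0.08, edgeR adjusted p = 0.00092) and CKX5 lower, 3.03% each way.

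Other genes of large change completed the set. GER3, a germin-like protein, stood at 1290, 1300 and 1320 CPM in vil1-1 at ZT6 and at 35.2, 38.8 and 41 CPM at ZT0, against 820, 846 and 857 CPM in Col-0 at ZT6 and 63.2, 53.6 and 47.5 CPM at ZT0. It rose 34-fold in vil1-1 and 15.3-fold in Col-0, an interaction of 1.15 ± 0.11 (edgeR adjusted p = 1.5e-08). THA1, a threonine aldolase, had the largest interaction among called genes with a symbol and at least 5 CPM, 2.56 ± 0.64 (edgeR adjusted p = 0.044). It fell to 6.3, 8.25 and 8.28 CPM in vil1-1 at ZT6, against 43.8, 57.8 and 35.8 CPM at ZT0, and to 0.922, 0.309 and 0.517 CPM in Col-0 at ZT6, against 22.8, 26.1 and 17.3 CPM at ZT0. Its call was lost without any 1 of 10 libraries (2.33 to 3.08, adjusted p up to 0.15) and held without Col-0 ZT0 replicate 3 or vil1-1 ZT0 replicate 2. GSTF3, a glutathione transferase with a near-identical neighbour, had 1.78 ± 0.41 (edgeR adjusted p = 0.017), lost without vil1-1 ZT6 replicate 1 and without Col-0 ZT6 replicate 2 or 3. GAT1_2.1, a glutamine amidotransferase-like protein, and ATL8, a RING-finger protein, had 1.05 ± 0.23 and 1.09 ± 0.25 (edgeR adjusted p = 0.02 and 0.015), and lost their calls under 5 and 3 settings. APR1, which reduces activated sulfate, had -1.15 ± 0.19, and DJ1F, a protein of the DJ-1 family, -1.14 ± 0.16 (edgeR adjusted p = 0.002 and 1.3e-05).

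Reversals were few. SBP2, a selenium-binding protein, stood at 99.1, 106 and 101 CPM in vil1-1 at ZT6 and at 128, 134 and 112 CPM at ZT0, against 177, 218 and 182 CPM in Col-0 at ZT6 and 88.9, 85.1 and 78 CPM at ZT0. It fell in vil1-1 and rose in Col-0, and the lines were apart in opposite directions at the 2 times (-1.48 ± 0.13, edgeR adjusted p = 4.2e-07). The glucosyltransferase UGT72E1 also fell in vil1-1 and rose in Col-0 (-0.44 ± 0.09, edgeR adjusted p = 0.0064). Besides DRM1, MEE51, the superoxide dismutase CSD2, the auxin response factor ARF11 and the chloride channel family member CLC-E rose in vil1-1 and fell in Col-0. Their interactions were 0.38 ± 0.08, 0.38 ± 0.09, 0.54 ± 0.15 and 0.40 ± 0.09 (edgeR adjusted p = 0.0043, 0.01, 0.049 and 0.0097). The calls of CSD2, ARF11 and CLC-E were lost under 3, 11 and 1 settings.

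Reads of 15 named genes may be shared with an annotated gene that overlaps them, among them THA1, BCAT2, ASN1, GAT1_2.1, CKX5, APR1, FRO3, GUN4, NUC1 and MCM7. The sources used here do not state the strand setting of the counting, so reads of a gene and of an antisense partner cannot be told apart.

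The same interaction was measured in 12 other libraries, as the log2 ratio of ZT6 to ZT0 in the vil1-1cop1-4 line minus that in cop1-4, a line mutant in COP1. In the cop1-4 background 961 genes were called, 4.48% of the genes tested. Of the 480 genes, 54 were called there too (11.2% of the 480 and 5.62% of the 961), 43 in the same direction and 11 in the opposite one. The fitted values had the same sign in 61.2% of the 480 and in 51.7% of all genes tested. A test of the difference between the backgrounds called 402 genes (1.87%), of which 125 were among the 480 (26% of the 480 and 31.1% of the 402).

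**Figure D4:**
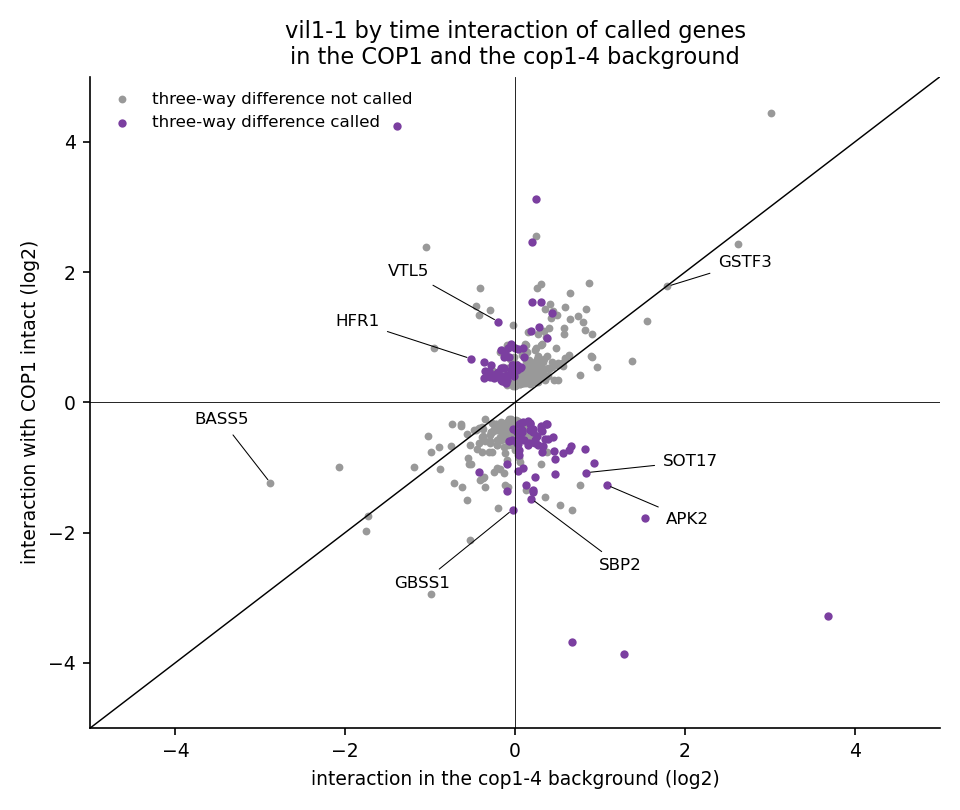
Interaction of the 480 called genes with COP1 intact (vertical axis) against the interaction in the cop1-4 background (horizontal axis), both log2, with the line of equal values and, in purple, the 125 genes whose interactions differed by the three-way test. The genes were chosen by the vertical axis, and 447 of the 480 (93.1%, against 45.7% of all genes tested) lie nearer to 0 on the horizontal one, while 2 lie outside the axes.

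Of the 33 lists, the indolic glucosinolate list held the most genes whose interaction differed between the backgrounds. With COP1 intact 0 of 15 were higher and 5 lower (median -0.34), against 6 higher and 0 lower (median 0.72) in the cop1-4 background, and the difference was called lower for 8 of 15. Of all 21448 genes tested, 266 were higher and 214 lower with COP1 intact, and 570 higher and 391 lower in the cop1-4 background. Over the same genes the difference was called higher for 169 and lower for 233. APK1 had an interaction of -0.74 with COP1 intact, against 0.46 in the cop1-4 background (edgeR adjusted p = 6.3e-05 and 0.024), a difference of -1.19 ± 0.17 (edgeR adjusted p = 4.1e-05). In the cop1-4 background it averaged 26.9 ± 0.87 CPM at ZT6 and 18.2 ± 0.401 CPM at ZT0 in the vil1-1cop1-4 line and 23.5 ± 0.898 CPM at ZT6 and 21.8 ± 2.7 CPM at ZT0 in cop1-4 (mean ± SD, n = 3).

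Of all 21448 genes tested, 266 were called higher with COP1 intact and 570 in the cop1-4 background. The difference was called higher for 169 of them and lower for 233. Of 17 salicylate genes 1 was higher with COP1 intact (median 0.03), against 8 in the cop1-4 background (median 1.63), and the difference was called lower for 7. Of the 21 starvation genes 10 were higher with COP1 intact (median 0.50), against 2 in the cop1-4 background (median 0.28), and the difference was called for 1, DRM1 (0.91 ± 0.20, edgeR adjusted p = 0.019). HFR1 had 0.67 with COP1 intact, against -0.52 in the cop1-4 background (edgeR adjusted p = 0.002 and 0.061), a difference of 1.19 ± 0.21 (edgeR adjusted p = 0.0008).

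GBSS1 had an interaction of -1.65 with COP1 intact, against -0.03 in the cop1-4 background (edgeR adjusted p = 2.4e-06 and 0.98), a difference of -1.62 ± 0.28 (edgeR adjusted p = 0.0026). Its levels in the cop1-4 background were 3.21 ± 0.315 CPM at ZT6 and 263 ± 12.5 CPM at ZT0 in the vil1-1cop1-4 line, and 3.29 ± 0.33 CPM at ZT6 and 262 ± 18.7 CPM at ZT0 in cop1-4. SBP2 averaged 213 ± 22.1 CPM at ZT6 and 480 ± 32 CPM at ZT0 in the vil1-1cop1-4 line, and 173 ± 14.9 CPM at ZT6 and 447 ± 10.9 CPM at ZT0 in cop1-4, with a difference between the interactions of -1.68 ± 0.18 (edgeR adjusted p = 2e-05). MAM3 and TPS11 were among the 43 genes called in the same direction in both backgrounds. Their interactions were -1.97 and 0.62 with COP1 intact and -1.76 and 0.44 in the cop1-4 background (edgeR adjusted p = 0.037 and 0.0052 there). Their differences, -0.20 ± 0.71 and 0.19 ± 0.14, were not called (edgeR adjusted p = 0.95 and 0.62).

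Promoters of the called genes were searched for 11 short motifs on both strands, in windows of 250 bases before to 50 after the start, of which 265 belonged to genes of a higher and 214 to genes of a lower interaction. TATCCA was present in 30.2% of the promoters of genes with a higher interaction, 14% of those with a lower one and 16.4% of all 21422. The I-box, GATAAG, was present in 28.7, 12.1 and 14.9%. The 2 motifs can overlap in CTTATCCA, which occurred in 5.28, 0.935 and 1.5% of promoters, while 19.6, 10.7 and 12.9% held TATCCA without an I-box. The evening element, AAAATATCT, a site of clock MYB proteins, was present in 7.55, 3.74 and 2.91%.

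On the side of lower interactions, the telo-box, AAACCCTA, was present in 3.02% of promoters of genes with a higher interaction, 14% with a lower one and 5.6% of all. The site II element, TGGGCC, which like the telo-box is common in ribosomal protein genes, was present in 12.5, 22.4 and 17.9%, and the G-box, CACGTG, in 7.92, 14.5 and 8.74%. Of the ribosome list, 18 of 29 promoters held the telo-box. The shares of the remaining motifs are given in the same order: AAAAATCT, a CCA1 site, in 7.92, 6.54 and 7.92%, CCACAC in 10.9, 8.41 and 8.0%, CCGAC in 15.1, 17.3 and 16.0%, GAGAGA in 23.8, 24.3 and 29.1%, and ACGT, which lies within the G-box, in 55.8, 56.1 and 50.7%. These shares describe letters in a window and carry no test.

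**Figure D5:**
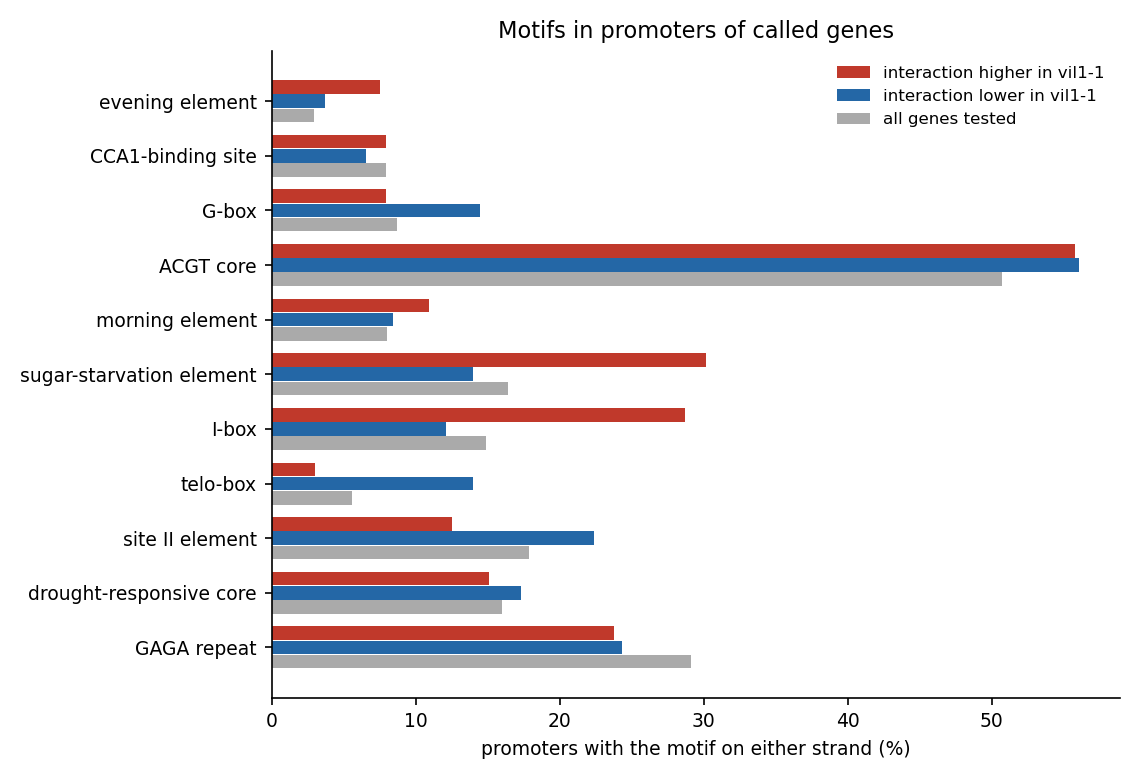
Share of promoters (%) that hold each of 11 motifs on either strand, for genes with a higher interaction, genes with a lower interaction and all genes tested. The sugar-starvation element and the I-box stand at 30.2 and 28.7% among genes with a higher interaction, and the telo-box at 14% among genes with a lower one.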

How the data were processed

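Whole seedlings gave 27 RNA-seq libraries. The authors deposited unnormalised read counts, 1 table per library. The submitters' processing notes name FastQC, STAR, edgeR and TAIR10 and give no versions, and the labels' protocols name the directional NEBNext Ultra kit. The sources used here do not state the strand setting of the counting. Lines that name no gene (4.7 to 6.1% of reads) stayed out of library sizes and tests. Names, overlaps and promoters came from RefSeq's TAIR10.1, matched by locus tag (31912 of 32678 identifiers).

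The software was edgeR 4.0.16 and limma 3.58.1 under R 4.3.3. filterByExpr over 9 groups kept 21448 genes, sizes were scaled by TMM, and CPM are on those sizes. All 27 libraries entered a robust quasi-likelihood fit of group means, with 18 residual degrees of freedom left. It gave each contrast, its SE and p, adjusted by Benjamini-Hochberg over all 21448 genes at 0.05. Every adjusted p in the text comes from this test unless another is named.

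Members and the 33 lists (838 genes, 20 symbols unmatched) were chosen with earlier results of these data known, so no list is independent evidence. Lists are described by counts and, for those treated at length, by the median. The text names VIL1, COP1 and HY5, the 12 largest called changes and up to 5 called genes with opposite changes in the 2 lines on each side (with a symbol and at least 5 CPM), and up to 4 called members per list and side with the smallest p, 77 genes in all. Other genes were picked after their values were seen, to complete a count or show an uncalled member. Counts were also simulated with the dispersion of the fit, without the further spread that it estimates for each gene, and 21341 genes were tested. Only genes with a mean of at least 5 CPM were changed. The interaction test found 47 of 67 genes changed 1.5-fold, 67 of 67 changed 2-fold and 66 of 66 changed 4-fold. Of its calls 4.76% (9 genes) were of unchanged genes. The spread of the real counts differs between genes, so these shares do not give the power of the test there. Figures were drawn with matplotlib 3.10.9. Alternatives were DESeq2 1.42.0, its size factors, other filters, other sets of groups, the replicate block and each library left out.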

Additional observations from a re-analysis of the deposited data

Results flagged for a closer look

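The change between ZT0 and ZT6 differed between vil1-1 and Col-0 by the interaction test for 480 genes, and that interaction differed between plants with COP1 intact and the cop1-4 background by the three-way test for 402 genes. The values below are the interaction with COP1 intact minus that in the cop1-4 background, log2, for the named genes past an edgeR adjusted p of 0.05 in the three-way test. No explanation was tested for them.

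The difference was positive for 9 of these named genes. It was 1.43 for the iron transporter-like gene VTL5, 1.19 for HFR1, 0.91 for DRM1, 0.87 for GER3, 0.82 for the replication gene MCM3, 0.63 for SS4 and for the superoxide dismutase CSD2, 0.61 for LDA and 0.52 for RBCS1B.

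It was negative for the other 18. In glucosinolate synthesis it was -2.35 for APK2, -1.92 for SOT17, -1.19 for APK1, -1.08 for SUR1, -0.80 for GGP1, -0.72 for CYP79B3, -0.57 for IIL1 and -0.54 for BCAT3. In other metabolism it was -1.68 for SBP2, -1.62 for GBSS1, -1.1 for AOC1, -0.64 for GLN1;2 and -0.51 for UGT72E1. It was -1.37 for DJ1F and -0.95 for the clock gene CCA1. The iron genes NRAMP4 and BTS had -0.68 and -0.47, and the nucleolar gene FIB1 had -0.44.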

How the results depend on the processing

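The number of genes called for the interaction was 480. A fit of the 4 groups alone called 1111 (601 higher, 510 lower). With 1 library left out the count ran from 244 (without Col-0 ZT6 replicate 2) to 593 (without Col-0 ZT6 replicate 1), with 127 to 368 higher and 117 to 225 lower. The other settings stayed within 1.5 times the count: DESeq2 620, its size factors 460, a fit without hy5-215 493, no filter 500 and a mean of at least 5 CPM 508. In the cop1-4 background (961 called, 570 higher, 391 lower) the 4 groups alone gave 337 higher, and 1 library left out gave 642 to 1128 (350 to 535 higher, 288 to 609 lower). The three-way difference (402 called, 169 higher, 233 lower) had 301 higher by DESeq2, and 1 library left out gave 244 to 514 (101 to 269 higher, 141 to 245 lower). For it the fit of the contrast's groups alone is the fit without hy5-215, which called 401. The cause of these moves was not tested.

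Of 74 named genes called, 46 kept the call in all 19 settings, 28 lost it in at least 1 and 17 in at least 5, and none changed sign. Same-numbered libraries did not deviate together (18 pairs, r -0.0799 to 0.123, 1 pair over 0.1), so the numbers are taken as names. With the replicate block the counts were 425 for the interaction, 920 in the cop1-4 background and 346 for the three-way difference. With 3 libraries a group, small interactions may have been missed.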

Other observations

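Sulfate assimilation genes outside the lists were picked after their values were seen, so their counts support nothing. APS1, an ATP sulfurylase, stood at 199, 218 and 219 CPM in vil1-1 at ZT6 and at 159, 153 and 174 CPM at ZT0, against 304, 353 and 307 CPM in Col-0 at ZT6 and 176, 162 and 156 CPM at ZT0. The lines were apart at ZT6 and overlapped at ZT0 (interaction -0.58 ± 0.08, edgeR adjusted p = 2.4e-05). APS3 and the methionine-linked gene MTO3 had -0.85 ± 0.17 and -0.40 ± 0.09 (edgeR adjusted p = 0.0022 and 0.0062). The transporter gene SULTR3;1 had -1.01 ± 0.16 (edgeR adjusted p = 6.3e-05), but by a fall that was larger in vil1-1. SULTR1;2, SIR and MTO1 had -0.36, -0.28 and -0.28 (edgeR adjusted p = 0.02, 0.045 and 0.027) and lost their calls under 5, 12 and 7 settings.

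The glycosidases, amino acid transporters and CBR were likewise picked after their values were seen. Among cell wall glycosidases, BXL1, a xylosidase, stood at 206, 210 and 197 CPM in vil1-1 at ZT6 and at 1200, 1330 and 1070 CPM at ZT0, against 105, 68.1 and 82.9 CPM in Col-0 at ZT6 and 942, 893 and 852 CPM at ZT0. Its vil1-1 libraries lay above those of Col-0 at both times (0.83 ± 0.17, edgeR adjusted p = 0.011). ASD1 and BGAL4 had 0.50 ± 0.08 and 0.80 ± 0.15 (edgeR adjusted p = 7.1e-05 and 0.0062), BGAL4 losing its call under 1 setting (0.053). BGAL1 had 0.36 ± 0.10 (edgeR adjusted p = 0.048, lost under 12 settings), with a rise called in vil1-1 and no change called in Col-0. Amino acid transporters differed in sign. AAP2 had 0.48 ± 0.10 and LHT1 0.63 ± 0.14 (edgeR adjusted p = 0.0033 and 0.02, LHT1 lost under 5 settings), while AAP4 had -1.07 ± 0.12 (edgeR adjusted p = 3.4e-07).

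The smallest p of all genes belonged to CBR, a cytochrome b5 reductase. It stood at 30, 29.9 and 29.8 CPM in vil1-1 at ZT6 and at 60.3, 67 and 57.8 CPM at ZT0, against 135, 139 and 135 CPM in Col-0 at ZT6 and 136, 140 and 137 CPM at ZT0. CBR fell in vil1-1, was below Col-0 at both times, and its change in Col-0 was not called (-0.02, edgeR adjusted p = 0.78). The interaction was -1.03 ± 0.08 (edgeR adjusted p = 1.2e-12). In the cop1-4 background CBR had an interaction of -0.88 ± 0.08 (edgeR adjusted p = 3.4e-10). The difference between the backgrounds, -0.15 ± 0.11, was not called (edgeR adjusted p = 0.58).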
